A study of Mus musculus with 12 samples.

Results

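The lipid-associated macrophage genes Trem2, Gpnmb, Mmp12, Spp1, Cd9, Lgals3, Itgax, Atp6v0d2, Cd84 and Lilrb4a were followed in interscapular brown adipose tissue (BAT) of mice with and without Txnip. These 10 genes, all present among the 25124 genes of the deposited expression table, were picked by symbol as genes of macrophages that surround dying or lipid-laden adipocytes, and with the knowledge that Mmp12 was among the genes with the largest genotype difference at 30 °C. RNA-seq libraries had been made from 10-week-old male mice kept for 1 week at 23 °C, called room temperature (RT), or at 30 °C, called thermoneutrality (TN). WT and Txnip-/- mice at each temperature make 4 groups, with 3 libraries in each. The Txnip-/- mice, kept on a C57B/6J background, are not described as a knockout of 1 tissue, so a difference in BAT need not arise in adipocytes or macrophages. The groups at 23 °C and 30 °C hold different mice.

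Macrophages that take up lipid from failing adipocytes gather around them and switch on a shared set of genes. TREM2 is a surface receptor that binds lipids and apolipoproteins and signals through the adaptor TYROBP, and CD9, a tetraspanin, and CD11c, the integrin chain encoded by Itgax, mark the same cells at the surface. GPNMB is a membrane glycoprotein of lysosome-loaded phagocytes, LGALS3 is a lectin that binds galactosides and damaged lysosomes, and ATP6V0D2 is a subunit of the vacuolar proton pump. MMP12 is a secreted elastase of macrophages and SPP1, or osteopontin, is a secreted matrix phosphoprotein. CD84 is a receptor of the SLAM family on leukocytes, and LILRB4A is an inhibitory receptor on myeloid cells.

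The sequence just upstream of the start was taken for the members that RefSeq lists (build GRCm38.p6) with the transcript counted in the deposited table, which were 8 of the 10. The 250 bases before the start are printed, from 5′ to 3′ on the gene's own strand, for the 4 members that hold the letters TGANTCA, a loose form of the AP-1 core TGAGTCA. Gpnmb is shown as a member in which no searched letters were found. Capitals mark every match, on either strand, to TGANTCA, to the ETS core GAGGAA, or to the E-box forms CACGTG and CATGTG.
Trem2 (chr17:48346151-48346400, + strand): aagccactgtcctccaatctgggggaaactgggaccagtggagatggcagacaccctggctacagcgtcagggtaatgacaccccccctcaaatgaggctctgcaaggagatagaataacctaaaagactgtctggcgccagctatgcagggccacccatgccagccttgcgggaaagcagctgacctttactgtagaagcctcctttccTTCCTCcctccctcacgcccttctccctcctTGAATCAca
Mmp12 (chr9:7347124-7347373, + strand): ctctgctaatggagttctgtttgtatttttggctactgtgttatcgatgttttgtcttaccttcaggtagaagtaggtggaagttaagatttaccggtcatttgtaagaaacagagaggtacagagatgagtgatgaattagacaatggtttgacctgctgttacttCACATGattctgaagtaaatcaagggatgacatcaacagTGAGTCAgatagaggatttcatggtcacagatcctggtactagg
Itgax (chr7:128129300-128129549, + strand): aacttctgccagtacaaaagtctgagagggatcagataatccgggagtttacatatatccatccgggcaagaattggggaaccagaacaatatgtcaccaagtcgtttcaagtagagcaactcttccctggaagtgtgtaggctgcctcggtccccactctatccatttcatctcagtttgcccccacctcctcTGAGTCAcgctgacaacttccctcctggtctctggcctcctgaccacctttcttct
Cd84 (chr1:171839447-171839696, + strand): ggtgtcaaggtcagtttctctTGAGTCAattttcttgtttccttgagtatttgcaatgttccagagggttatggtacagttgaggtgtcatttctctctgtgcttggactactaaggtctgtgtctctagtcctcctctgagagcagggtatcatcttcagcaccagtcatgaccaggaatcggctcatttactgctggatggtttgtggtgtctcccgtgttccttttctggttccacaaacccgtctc
Gpnmb (chr6:49036268-49036517, + strand): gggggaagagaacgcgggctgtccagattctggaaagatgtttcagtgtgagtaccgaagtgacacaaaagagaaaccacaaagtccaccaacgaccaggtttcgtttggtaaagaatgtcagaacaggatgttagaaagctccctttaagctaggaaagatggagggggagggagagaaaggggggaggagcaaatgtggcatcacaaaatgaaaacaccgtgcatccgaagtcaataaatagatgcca

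TGANTCA was found with its first base at −9 in Trem2, −44 in Mmp12, −56 in Itgax and −229 in Cd84, with −1 as the last base before the start. It stood in 4 of 8 member windows and in 6.75% of the 32851 windows of this length in the RefSeq table. The core TGAGTCA itself, on either strand and always within a match to the looser letters, stood in 3 of 8, those of Mmp12, Itgax and Cd84 and not of Trem2, and in 4.46% of all windows. GAGGAA stood in the windows of Trem2 and Spp1, 2 of 8, against 23.3% of all windows. CATGTG stood in those of Mmp12 and Cd9, 2 of 8, against 12.3%. CACGTG stood in 0 of 8, against 6.02%. The other letters searched do not overlap each other in the printed windows, and a match describes the sequence and not a bound site.

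Values are given in TPM, a read count scaled to transcript length and to the library's total, which can be compared between genes. The libraries held 29.93 to 47.44 M reads (M for mega), of which 19.19 to 29.23 M were on genes. Since a TPM value moves in steps of 1 read, reads per gene could be rebuilt, and 100% of the low values in each library came out whole within 0.1 read. Txnip, the gene deleted, had 612.8 ± 70.8 TPM (SD, n = 3) in RT WT and 29.0 ± 5.59 in RT Txnip-/-. It had 1131 ± 92.7 in TN WT and 11.98 ± 2.12 in TN Txnip-/-. The Txnip-/- libraries were thus low in Txnip in 6 of 6 cases. TN WT replicate 1, the most deeply sequenced library, was the lowest TN WT library for each of the 10 members.

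The members were low in BAT of WT mice at 23 °C and high in BAT of Txnip-/- mice at 30 °C. Their summed level was 16.4 ± 3.12 TPM in RT WT and 26.8 ± 5.02 in RT Txnip-/-, and it was 42.3 ± 14.5 TPM in TN WT against 134.6 ± 25.7 in TN Txnip-/- (SD, n = 3 each). In a bulk tissue library, fewer macrophages and less of an RNA per macrophage cannot be told apart. In RT WT, Cd9 alone made up 73.3% of the summed level, and in TN Txnip-/- it made up 24.4%, behind Lgals3 with 28.2% and before Mmp12 with 15.8%.

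**Figure D1:**
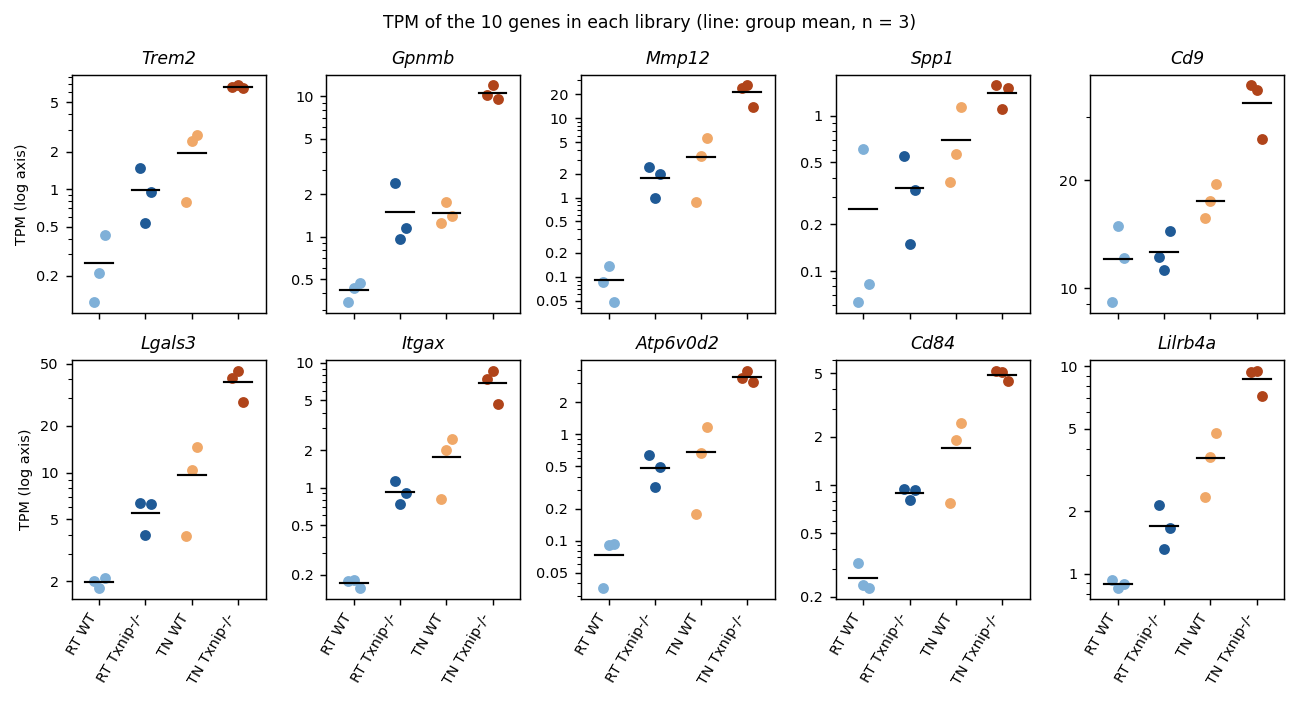
TPM of each gene (y axis, log scale, a range of its own in each panel) in the 12 libraries by group (x axis), with a line at the group mean of 3 libraries. The 3 TN Txnip-/- libraries are the highest for 9 of the 10 genes, and Spp1 is the gene in which TN Txnip-/- and TN WT overlap.

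Trem2, the receptor, had 0.123, 0.21 and 0.425 TPM in the RT WT libraries and 1.47, 0.535 and 0.95 in RT Txnip-/-. It had 0.783, 2.42 and 2.71 TPM in TN WT and 6.59, 6.84 and 6.53 in TN Txnip-/-. Every Txnip-/- library was above every WT library of its temperature, and the RT WT values rest on 3, 5 and 8 reads. Trem2 lies at chr17:48346401-48352276 on the + strand (mm10).

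Among the other surface proteins, Itgax (chr7:128129550-128150657, +) had 0.178, 0.182 and 0.158 TPM in RT WT and 1.12, 0.736 and 0.91 in RT Txnip-/-. It had 0.806, 2.02 and 2.48 TPM in TN WT and 7.45, 8.61 and 4.67 in TN Txnip-/-. The groups of each temperature did not overlap, and the SD of the RT WT libraries was 0.0129 TPM. Cd84 (chr1:171839697-171890718, +) had 0.326, 0.236 and 0.228 TPM in RT WT and 0.944, 0.804 and 0.927 in RT Txnip-/-. It had 0.776, 1.91 and 2.43 TPM in TN WT and 5.16, 5.1 and 4.44 in TN Txnip-/-. These groups did not overlap either.

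Lilrb4a (chr10:51490898-51496611, +) had 0.929, 0.856 and 0.889 TPM in RT WT and 2.15, 1.31 and 1.67 in RT Txnip-/-. It had 2.34, 3.67 and 4.78 TPM in TN WT and 9.38, 9.5 and 7.21 in TN Txnip-/-, with no overlap at either temperature. Its near-identical neighbour Lilrb4b was not analysed here, and Lilrb4a overlaps annotated exons of Gm49339 on its own strand, so how its reads were divided is uncertain. Cd9 (chr6:125460266-125494760, −), which other cells of the tissue also express, had 9.13, 14.9 and 12.1 TPM in RT WT and 12.2, 11.2 and 14.4 in RT Txnip-/-. It had 15.7, 17.4 and 19.5 TPM in TN WT and 36.7, 35.6 and 26.0 in TN Txnip-/-. The 23 °C groups overlapped and the 30 °C groups did not.

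Of the lysosome-linked members, Gpnmb (chr6:49036518-49058182, +) had 0.342, 0.433 and 0.471 TPM in RT WT and 2.4, 0.961 and 1.15 in RT Txnip-/-. It had 1.26, 1.75 and 1.41 TPM in TN WT and 10.3, 11.9 and 9.5 in TN Txnip-/-. RT Txnip-/- replicate 1 stood above the other 2 libraries of its group, and no group of a temperature overlapped the other. Lgals3 (chr14:47373860-47386167, +) had 2.01, 1.82 and 2.1 TPM in RT WT and 6.34, 3.998 and 6.26 in RT Txnip-/-. It had 3.93, 10.3 and 14.6 TPM in TN WT and 40.6, 44.9 and 28.5 in TN Txnip-/-. Lgals3 became the most abundant member in TN Txnip-/- on the mean, though its libraries there overlapped those of Cd9. Atp6v0d2 (chr4:19876838-19922566, −), the pump subunit, had 0.036, 0.091 and 0.092 TPM in RT WT and 0.641, 0.317 and 0.488 in RT Txnip-/-. It had 0.178, 0.666 and 1.18 TPM in TN WT and 3.4, 3.93 and 3.07 in TN Txnip-/-, again without overlap.

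Of the secreted members, Mmp12 (chr9:7347374-7360461, +) had 0.087, 0.139 and 0.048 TPM in RT WT and 2.42, 0.983 and 1.95 in RT Txnip-/-. It had 0.877, 3.29 and 5.63 TPM in TN WT and 24.0, 25.8 and 13.8 in TN Txnip-/-. At 23 °C the nearest libraries of the 2 genotypes were 0.139 TPM (11 reads, exact 95% Poisson interval 0.0694 to 0.249) in WT and 0.983 TPM (67 reads, 0.762 to 1.248) in Txnip-/-, intervals that cover counting error only. The counted transcript of Mmp1b, a neighbour on the opposite strand, does not overlap that of Mmp12 although other annotated exons do, and it had at most 0.03 TPM in any library. Spp1 (chr5:104435111-104441053, +) was the member with the lowest level in TN Txnip-/-. It had 0.063, 0.613 and 0.082 TPM in RT WT and 0.549, 0.149 and 0.332 in RT Txnip-/-, and 0.373, 0.569 and 1.15 in TN WT and 1.57, 1.11 and 1.51 in TN Txnip-/-. Its genotypes overlapped at both temperatures, RT WT replicate 2 being the highest of the 6 libraries at 23 °C, and it shares its strand with Gm42793, of which annotated exons overlap it.

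Across groups the means stood lowest in RT WT, then in RT Txnip-/- and TN WT, and highest in TN Txnip-/-, for 9 of the 10 members. The exception was Gpnmb, with 1.51 ± 0.784 TPM in RT Txnip-/- and 1.47 ± 0.253 in TN WT. The 2 middle groups overlapped for 8 members and were apart for Cd9 and Lilrb4a. Within TN Txnip-/- the order of the member means was Lgals3, Cd9, Mmp12, Gpnmb, Lilrb4a, Itgax, Trem2, Cd84, Atp6v0d2 and Spp1. Neighbours in that order overlapped in their libraries for Lgals3 and Cd9, for Lilrb4a and Itgax, and for Itgax and Trem2, and Gpnmb and Lilrb4a met at 9.5 TPM, so with 3 libraries each these were not separated.

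The comparison of RT Txnip-/- with RT WT asked whether the genotype difference was present under ordinary housing, and the rule by which the genes were picked names the 30 °C comparison and not this one, although earlier results of both were known. Lgals3 rose 2.16-fold on the log2(TPM + 1) scale (log2 difference 1.11 ± 0.16 SE, limma adjusted p = 0.028). On the authors' log2 values, whose transform is not named, its difference was 0.47 (limma adjusted p = 0.0246). On the log2(TPM + 1) scale Lilrb4a had a difference of 0.51 ± 0.13 (adjusted p = 0.128) and Cd9 one of 0.08 ± 0.17 (adjusted p = 0.862). These were the 3 members with a mean of at least 1 TPM over the 6 libraries, Lilrb4a only through the Txnip-/- libraries. Lgals3 was the 1 member called, where 0.76% of 11980 tested genes were called higher and 0.726% lower. The call of Lgals3 was lost without RT WT replicate 1 (adjusted p = 0.0786) or 2 (0.127), and without RT Txnip-/- replicate 1 (0.0784) or 3 (0.111), by limma on 5 libraries.

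The other 7 members were under 1 TPM on the mean at 23 °C and were tested by 2 alternatives. Without the filter on low values, limma called Itgax (0.71 ± 0.08 on the log2(TPM + 1) scale, adjusted p = 0.0469) and Cd84 (0.58 ± 0.06, adjusted p = 0.0395), 2 of 10 members, where 0.091% of 21970 genes were called higher. Mmp12 had the largest difference of that fit among the members, 1.32 ± 0.19 (adjusted p = 0.0664), and Lgals3 was not called in it (adjusted p = 0.0714). The added 1 TPM compresses differences between values this low. On the rebuilt reads, an alternative chosen after the data were seen, limma-voom tested 9 members and called 5, where 0.78% of 14479 genes were called higher. Mmp12, Atp6v0d2 and Trem2 passed the minimum of 10 reads on the mean only through the Txnip-/- libraries, since their RT WT means were 7, 3.67 and 5.33 reads, so the count of 5 is not read against that share and the values of these 3 are given without a test. They were 4.17 ± 0.58 for Mmp12, 2.60 ± 0.45 for Atp6v0d2 and 1.94 ± 0.52 for Trem2 on the log2 scale. On that scale Itgax rose by 2.34 ± 0.26 (adjusted p = 0.013), Cd84 by 1.71 ± 0.23 (adjusted p = 0.0173) and Lgals3 by 1.44 ± 0.23 (adjusted p = 0.0255). In the same limma-voom fit Gpnmb had 1.73 ± 0.39 (adjusted p = 0.0807), Lilrb4a 0.88 ± 0.24 (adjusted p = 0.134) and Cd9 0.07 ± 0.19 (adjusted p = 0.915). Spp1 was under the minimum.

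These limma-voom calls depended on single libraries. Without RT WT replicate 2 or without RT Txnip-/- replicate 3, the calls of Itgax, Cd84 and Lgals3 were all lost by limma-voom, with adjusted p-values from 0.0869 to 0.14 and from 0.0555 to 0.111, and each of the 3 kept an unadjusted p under 0.05. The calls over all genes fell with them, from 214 to 11 and to 24. Without RT WT replicate 1, RT WT replicate 3 or RT Txnip-/- replicate 1, the calls of Itgax and Cd84 remained and that of Lgals3 did not. Without RT Txnip-/- replicate 2, all 3 were called. The difference of Mmp12 lay between 3.84 and 4.52 over these fits. Members whose Txnip-/- libraries all lay above all WT libraries numbered 8 of 10 at 23 °C, all but Spp1 and Cd9, against 11.9% of the genes with a TPM above 0.

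**Figure D2:**
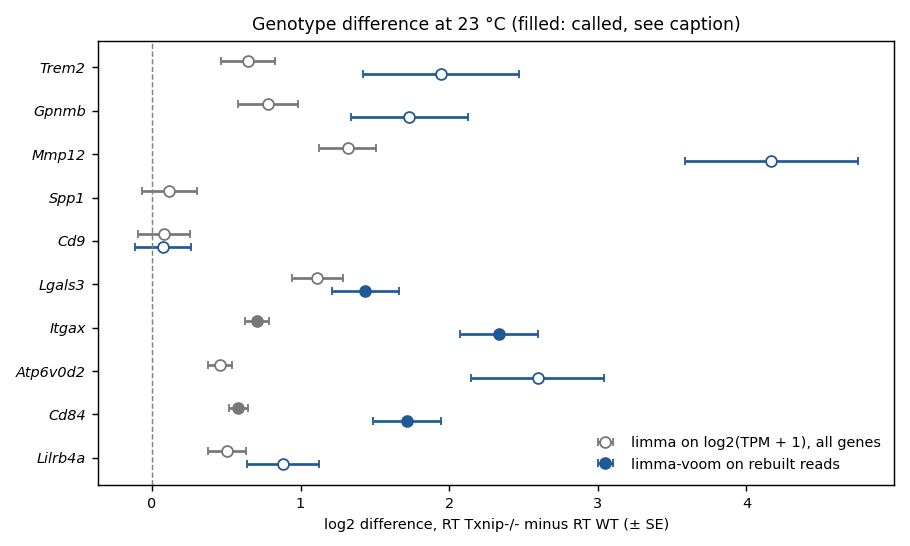
Difference of RT Txnip-/- minus RT WT (x axis, log2 scale, ± SE) for each gene (y axis) by limma on log2(TPM + 1) without a filter (grey) and by limma-voom on rebuilt reads (blue), filled where the adjusted p is under 0.05, except that Mmp12, Atp6v0d2 and Trem2 are drawn open in blue since they reached the read minimum only through Txnip-/-. Mmp12 lies farthest to the right in both fits, Cd9 lies next to 0, and Spp1 has no limma-voom value.

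Markers of skeletal muscle differed in level between the genotypes at 23 °C, their list summing to 20.03 to 50.2 TPM in the RT Txnip-/- libraries and 2.32 to 2.94 in RT WT, with Ckm, a creatine kinase of muscle, at 6.16 ± 2.86 TPM against 0.0773 ± 0.0709. Of the 6 muscle genes tested 6 were called higher, where 0.76% of all genes were, but all save Mylpf were under 1 TPM in RT WT and were tested only through RT Txnip-/-, so nothing is read from that count. No muscle gene of the 7 listed was at 0 in every library of a group, and the part of muscle tissue in the results at 23 °C was not tested.

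At 30 °C the levels of TN Txnip-/- and TN WT are a description, since the genes were picked with this comparison in view. On the log2(TPM + 1) scale the differences were 2.51 for Mmp12, 2.22 for Gpnmb, 2.003 for Lgals3, 1.53 for Itgax, 1.46 for Atp6v0d2, 1.44 for Trem2, 1.18 for Cd84, 1.10 for Lilrb4a, 0.86 for Cd9 and 0.52 for Spp1. Their median was 1.45, where the median of all tested genes was 0.01. With all 10 over the minimum level, 9 met the call rule and Spp1 did not, where 6.49% of 12891 tested genes were called higher and 2.17% lower, and nothing is read from that count. Atp6v0d2 and Spp1, with TN WT means of 0.673 and 0.696 TPM, were over the minimum only through TN Txnip-/-. All Txnip-/- libraries lay above all WT libraries for 9 of 10 members and for 13% of the genes with a TPM above 0. Without TN Txnip-/- replicate 1, or without replicate 2, 3 members met the rule, Cd9, Gpnmb and Atp6v0d2, while all 9 did without any 1 of the other 4 libraries, TN WT replicate 1 included. The difference of Mmp12 lay between 2.01 and 2.92 over the fits with 1 library left out.

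Ratios of mean TPM are not compressed by the added 1 TPM. The median ratio of Txnip-/- over WT was 3.50 at 23 °C (1.05 for Cd9 to 19.6 for Mmp12) and 3.65 at 30 °C (1.87 for Cd9 to 7.17 for Gpnmb). Gpnmb had 3.62 at 23 °C and 7.17 at 30 °C, Cd9 1.05 and 1.87, and Lgals3 2.80 and 3.94. Mmp12 had 19.6 at 23 °C, against a WT mean of 0.0913 TPM, and 6.50 at 30 °C. Lilrb4a had 1.91 and 2.42, and Spp1, whose genotypes overlapped, 1.36 and 2.01. Trem2 had 3.90 and 3.38, Itgax 5.34 and 3.91, Atp6v0d2 6.60 and 5.15, and Cd84 3.39 and 2.88. The difference between the temperatures in these ratios was not tested.

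**Figure D3:**
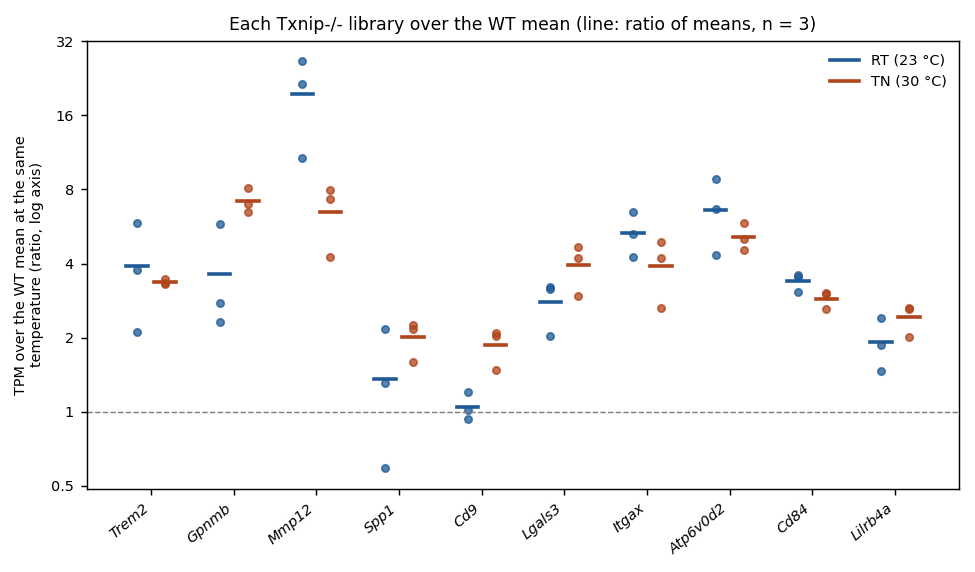
TPM of each Txnip-/- library divided by the WT mean of its temperature (y axis, log scale, dashed line at 1) for each gene (x axis), at RT in blue and TN in red, with a line at the ratio of the means of 3 libraries. Mmp12 has the highest ratio at RT, 19.6, and Gpnmb has the highest at TN, 7.17.

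The members were higher at 30 °C than at 23 °C in both genotypes. These 2 comparisons use the 30 °C libraries and each shares a group with a genotype comparison, so they are given as a description, with no p-value for a member and nothing read from the calls. In WT the ratio of mean TPM was 35.7 for Mmp12, 10.2 for Itgax, 9.22 for Atp6v0d2, 7.79 for Trem2, 6.47 for Cd84, 4.87 for Lgals3, 4.03 for Lilrb4a, 3.55 for Gpnmb, 2.75 for Spp1 and 1.46 for Cd9. In Txnip-/- it was 11.9 for Mmp12, 7.49 for Itgax, 7.19 for Atp6v0d2, 7.02 for Gpnmb, 6.87 for Lgals3, 6.75 for Trem2, 5.49 for Cd84, 5.10 for Lilrb4a, 4.07 for Spp1 and 2.60 for Cd9. All 9 members with a mean of at least 1 TPM met the call rule in each genotype, where 31.4% of 12486 tested genes were called higher and 6.39% lower in WT, and 30.9% higher and 8.27% lower in Txnip-/-. That mean is taken over 12 libraries, and of the 9 only Cd9 and Lgals3 had a mean of at least 1 TPM in RT WT, so the others passed through groups in which they were higher. All 30 °C libraries lay above all 23 °C libraries for 9 members in WT and 38.5% of genes, and for 10 in Txnip-/- and 35.9% of genes.

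The median of all tested genes was itself 0.18 (log2) higher at 30 °C in WT and 0.15 higher in Txnip-/-, against 0.53 for Cd9, the smallest difference of the 9 members in WT on that scale. Spp1, under the minimum level, had 0.44 there without the filter. After each library was centred on its median, 1926 genes were called higher and 1841 lower in WT, in place of 3919 and 798, and 2294 and 2435 in Txnip-/-, in place of 3858 and 1033. With that centring 7 of the 9 members were called higher in WT and 9 in Txnip-/-.

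Genes that mark macrophages in general were followed beside the members. The 22 macrophage identity genes, fixed by name and including Adgre1, which encodes F4/80, the complement chains C1qa, C1qb and C1qc, and Csf1r, the receptor for CSF1, were each above 0 in at least 1 library of each group. Their summed level ran from 102.2 to 152.7 TPM in RT WT and 125.5 to 190.4 in RT Txnip-/-, and from 159.6 to 242.8 TPM in TN WT and 395.3 to 549.1 in TN Txnip-/-. At 23 °C the list had a median log2 difference of 0.67, where all tested genes had 0.03, and 5 of 18 tested were called higher, namely Mpeg1, Tyrobp, C1qb, Ms4a7 and Mrc1, where 0.76% of all genes were. Of these Ms4a7 was under 1 TPM in RT WT and was tested only through RT Txnip-/-. Without RT WT replicate 2, limma on log2(TPM + 1) called 0 of 11992 genes higher at 23 °C. No gene of this or any other list thus kept such a call there. Tyrobp was at 5.01 ± 0.191 TPM in WT and 12.6 ± 3.54 in Txnip-/- (log2 difference 1.14 ± 0.19, limma adjusted p = 0.0415). By limma-voom 4 of 22 were called, without Tyrobp. Adgre1 did not pass there, with 2.04 ± 0.075 and 4.004 ± 1.24 TPM (limma adjusted p = 0.137), nor did Csf1r, with 4.62 ± 0.205 and 7.496 ± 1.29 TPM (limma adjusted p = 0.0736). At 30 °C the median was 0.96 and 14 of 21 were called higher, where 6.49% of all genes were, each with at least 1 TPM in TN WT, Csf1r having 11.1 ± 1.22 TPM in WT and 20.9 ± 3.52 in Txnip-/-. The markers of macrophages thus moved with the members, and how far more macrophages account for the members' levels was not tested.

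The members were then expressed relative to the mean log2(TPM + 1) of the 21 macrophage identity genes with a mean of at least 1 TPM. That mean was 2.08 to 2.12 for RT WT, 2.34 to 2.72 for RT Txnip-/-, 2.702 to 3.09 for TN WT and 3.65 to 3.93 for TN Txnip-/-. At 30 °C the members' genotype difference beyond that of the identity genes had a median of 0.59, a description since the genes were picked on these values. Mmp12 had 1.65, Gpnmb 1.36 and Lgals3 1.14, while Cd9 had −0.01 and Spp1 −0.34. At 23 °C the median was 0.15, with 0.85 for Mmp12, 0.64 for Lgals3 and 0.24 for Itgax, whose Txnip-/- libraries all lay above those of WT. Spp1 had −0.35, with all its Txnip-/- libraries below those of WT. The others overlapped, with 0.31 for Gpnmb, 0.18 for Trem2, 0.11 for Cd84, 0.04 for Lilrb4a, −0.01 for Atp6v0d2 and −0.39 for Cd9.

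The size of this excess depended on the scale. With log2(TPM) and no added 1, an alternative added with the data in view, the median was 1.12 at 23 °C and 1.04 at 30 °C. At 23 °C Mmp12 then had 3.68, Atp6v0d2 2.14, Itgax 1.75 and Cd9 −0.56. At 30 °C Mmp12 had 2.04 and Gpnmb 1.87. With Csf1r alone as the reference on the log2(TPM + 1) scale, the median was 0.03 at 23 °C and 0.59 at 30 °C.

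**Figure D4:**
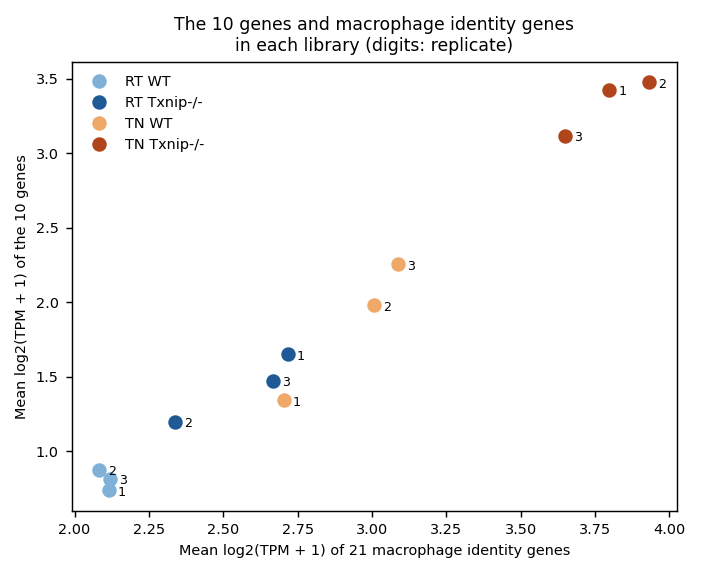
Mean log2(TPM + 1) of the 10 genes (y axis) against that of 21 macrophage identity genes (x axis) in the 12 libraries, coloured by group, with digits for replicates. The RT WT libraries lie together at the lower left, TN WT replicate 1 lies among the RT Txnip-/- libraries, and the 3 TN Txnip-/- libraries lie apart at the upper right.

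Of the list of TREM2 ligands, adaptors and signalling proteins, 2 of 9 tested were called higher at 23 °C (list median 0.26), where 0.76% of all genes were, Tyrobp and Clu, a secreted chaperone that TREM2 binds. Clu had 9.56 ± 0.627 TPM in RT WT and 29.3 ± 10.8 in RT Txnip-/- (limma adjusted p = 0.0291), and 28.7 ± 4.90 in TN WT and 212.8 ± 32.8 in TN Txnip-/-. At 30 °C 7 of 12 were called higher (list median 0.60), where 6.49% of all genes were, 6 of them with at least 1 TPM in TN WT and Hcst below it, among them Syk, the kinase downstream of TYROBP, with 1.997 ± 0.365 TPM in WT and 4.98 ± 1.04 in Txnip-/-. Apoe, a lipoprotein ligand of TREM2 made by many cells, had 1072 ± 90.8 TPM in RT WT and 1294 ± 209 in RT Txnip-/- (limma adjusted p = 0.355). It had 1580 ± 241.1 TPM in TN WT and 1911 ± 248.1 in TN Txnip-/-, and its genotypes overlapped at both temperatures.

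Of genes by which foam cells take up, store and release lipid, limma called 0 of 16 at 23 °C (list median −0.09), where 8 had an unadjusted p under 0.05 and limma-voom called 0 of 17. In RT WT Fabp4, Lpl, Cd36 and Plin2 of this list had 16388, 1438, 948 and 523 TPM, against 4.62 for Csf1r. What this list shows of macrophages within bulk tissue was not tested. At 30 °C 2 of 18 were called higher (list median 0.08), beside 6.49% of all genes, Soat1, which esterifies cholesterol, with 1.47 ± 0.523 and 2.81 ± 0.302 TPM, and Abcg1, which exports it, with 4.70 ± 0.375 and 6.50 ± 0.351 TPM. Among lysosomal hydrolases and membrane proteins of phagocytes, 3 of 19 were called higher at 23 °C (list median 0.01), Ctss, Lyz2 and Cd63. Acp5, a phosphatase also known from osteoclasts, was called lower. Of all genes 0.76% were called higher there and 0.726% lower. Ctss, which encodes cathepsin S, had 5.16 ± 0.862 TPM in RT WT and 16.96 ± 3.83 in RT Txnip-/- (limma adjusted p = 0.0202), and Acp5 134.7 ± 3.21 and 98.8 ± 3.81 TPM (limma adjusted p = 0.0203). At 30 °C 7 of 19 were called higher (list median 0.31), where 6.49% of all genes were, Ctss having 24.4 ± 10.5 and 92.0 ± 20.8 TPM.

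Of 16 other subunits and accessory proteins of the vacuolar proton pump, to which Atp6v0d2 belongs, limma called 0 at 23 °C (list median −0.01), where 3 had an unadjusted p under 0.05 and limma-voom called 0, and 1 at 30 °C (list median 0.05), a share close to the 6.49% of all genes, Tcirg1, the pump subunit of osteoclasts and macrophages, with 14.2 ± 0.943 TPM in TN WT and 21.3 ± 2.91 in TN Txnip-/-. Of the MiT/TFE factors, which switch on lysosomal genes, limma called 0 of 3 tested at either temperature, where 0 had an unadjusted p under 0.05 and limma-voom called 0. Mitf had 2.21 ± 0.279 TPM in RT WT against 2.04 ± 0.21 in RT Txnip-/-, and 3.08 ± 0.0235 TPM in TN WT against 2.86 ± 0.617 in TN Txnip-/-. Among binding partners and relatives of the members, 2 of 24 were called higher at 23 °C (list median 0.15), Itgb2 and Pirb, and 14 of 33 at 30 °C (list median 0.55). Of all genes 0.76% were called higher at 23 °C and 6.49% at 30 °C. Pirb at 23 °C, and Ly9 and Timp1 at 30 °C, were tested only through Txnip-/-, being under 1 TPM in WT. Itgb2, the β chain that pairs with CD11c, had 1.47 ± 0.393 TPM in RT WT and 3.53 ± 0.613 in RT Txnip-/- (limma adjusted p = 0.0472), then 6.21 ± 2.71 in TN WT and 16.955 ± 3.95 in TN Txnip-/-. Of the inflammatory and repair mediators, beside the same shares of all genes, 1 of 4 was called higher at 23 °C and 1 of 7 at 30 °C. These were Retnla at 23 °C, with 9.75 ± 0.932 and 21.4 ± 2.64 TPM (limma adjusted p = 0.014), and Igf1 at 30 °C, with 6.63 ± 1.10 and 14.9 ± 3.85 TPM.

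The same lists were followed between the housing temperatures, where 31.4% of all genes were called higher in WT and 30.9% in Txnip-/-. The shares called lower were 6.39% and 8.27%. After median centring 1926 of 12486 genes were called higher and 1841 lower in WT, and 2294 and 2435 in Txnip-/-. Of the TREM2 list 11 of 11 tested were called higher at 30 °C in WT (list median 0.82) and 11 of 11 in Txnip-/- (1.13), and 9 and 11 were after median centring. Of the macrophage identity list 16 of 21 were called higher in WT (list median 1.09), and 17 of 21 in Txnip-/- (1.46), with the same counts after median centring. Of the called genes 2 of the TREM2 list in each genotype, and 4 of the identity list in WT and 3 in Txnip-/-, were under 1 TPM at 23 °C and were tested only through the 30 °C libraries or the other genotype. Of the foam cell list 4 of 17 were called higher and 5 lower in WT, and 5 higher and 3 lower in Txnip-/-. Lpl and Plin2, as RNA of the whole tissue, were among the lower. Soat1, among the higher in both genotypes, was under 1 TPM at 23 °C and was tested only through the 30 °C libraries. After median centring the foam cell list had 3 higher and 7 lower in WT, and 4 and 5 in Txnip-/-. The vacuolar pump list had 1 of 16 higher and 1 lower in WT and 3 higher and 1 lower in Txnip-/-, which became 0 and 5 and 1 and 4 after that centring.

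Markers of other cells were followed in the same libraries, where 0.76% of all genes were called higher at 23 °C and 6.49% at 30 °C. Of the pan-leukocyte genes 3 of 7 were called higher in RT Txnip-/-, among them Ptprc, which encodes CD45, with 1.31 ± 0.0154 and 3.42 ± 0.791 TPM, and 8 of 8 in TN Txnip-/-, their sum being 38.0 to 78.6 TPM in TN WT and 115.3 to 162.6 in TN Txnip-/-. Monocyte genes were called higher in 1 of 2 at 23 °C, Ccr2, and in 2 of 5 at 30 °C, Ccr2 and Plac8. At 30 °C dendritic cell genes were called higher in 3 of 5, B and plasma cell genes in 2 of 3, T and natural killer cell genes in 2 of 6, mast cell genes in 1 of 1, Kit, endothelial genes in 1 of 7 and dividing cell genes in 1 of 4. Of these Siglech and Ccr7 of the dendritic list and Cd4 of the T cell list were under 1 TPM in TN WT and were tested only through TN Txnip-/-, as Ccr2 and Jchain were through RT Txnip-/- at 23 °C, so nothing is read from these counts. The other mast cell genes listed were not tested at this level and had lower means in TN Txnip-/-, Cpa3 for one having 0.799 ± 0.371 TPM in TN WT and 0.332 ± 0.0525 in TN Txnip-/-. Of neutrophil genes limma called 0 of 4 there, where 2 had an unadjusted p under 0.05 and limma-voom called 0 of 4. At 23 °C Jchain of the plasma cell list was called higher, 1 of 2, and no tested gene of the dendritic, mast, T and natural killer, endothelial or fibroblast lists was called by limma or by limma-voom. At an unadjusted p under 0.05 these lists had 0, 0, 2, 2 and 2 genes. Fibroblast genes were called higher in 5 of 6 at 30 °C (list median 0.79), the list summing to 245.4 to 322.3 TPM in TN WT and 499.9 to 506.2 in TN Txnip-/-.

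Of the brown adipocyte genes 5 of 11 were called lower at 30 °C (list median −0.52), where 2.17% of all genes were. Ucp1, the uncoupling protein of brown fat, was there at 814.3 ± 280.5 TPM in WT and 249.4 ± 92.7 in Txnip-/-. At 23 °C 2 of 11 were called lower (list median −0.22), Elovl3 and Cox7a1, where 0.726% of all genes were. The brown adipocyte list summed to 13478 to 13904 TPM in RT WT and to 5672 to 6265 in TN Txnip-/-. It also holds genes of adipocytes in general, such as Adipoq, so the sum does not mark brown adipocytes alone. Osteoclast genes, some of which lipid-loaded macrophages share, were called lower in 1 of 3 at 23 °C, Acp5, beside 0.726% of all genes. They were called higher in 1 of 4 at 30 °C, Ctsk, beside 6.49% of all genes. The part of each of these cell types in the members' levels was not tested.

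**Figure D5:**
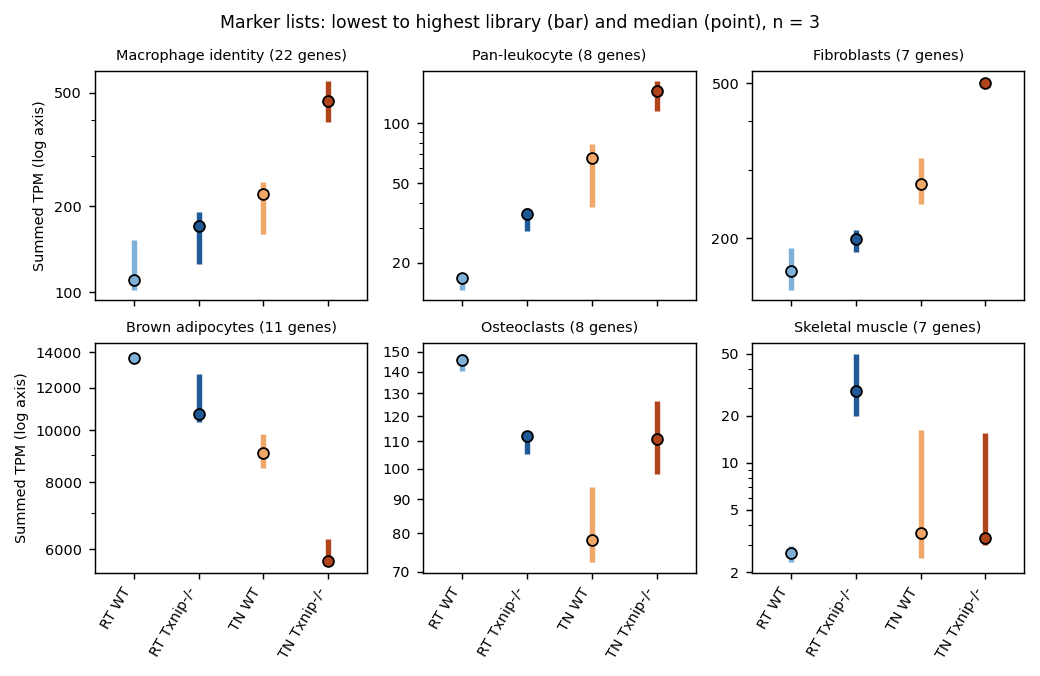
Summed TPM (y axis, log scale, a range of its own in each panel) of the genes in 6 marker lists by group (x axis), as a bar from the lowest to the highest of 3 libraries with a point at the median. The macrophage, leukocyte and fibroblast lists are highest in TN Txnip-/-, the brown adipocyte list is lowest there, and the skeletal muscle list is highest in RT Txnip-/-.

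The genes whose pattern was most like that of the members were sought among 8900 genes with a mean of at least 5 TPM, by Pearson's r of log2(TPM + 1) with the members' mean z-score over the 12 libraries. The 8 highest were Cxcl16 (r = 0.993), Arpc1b (0.991), Cd68 (0.990), Fcer1g (0.990), Itgb2 (0.989), Cyth4 (0.988), Ctsh (0.987) and C1qb (0.987). Cxcl16, a membrane chemokine that also takes up oxidized lipoprotein, had mean levels of 2.20 TPM in RT WT against 3.94 in RT Txnip-/-, and 6.05 TPM in TN WT against 14.9 in TN Txnip-/-. After the group means were taken off, the 5 highest were Paip1 (r = 0.982), Gbp7 (0.975), Itgb2 (0.966), Ptprc (0.955) and Trib3 (0.954), so Itgb2 was high in both forms. The 12 libraries share their 4 group levels, and these values are descriptions.

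Among the members themselves the likeness over 12 libraries was high for 7 and lower for 3. The median r of a member with the other 9 was 0.976 to 0.987 for Trem2, Mmp12, Lgals3, Itgax, Atp6v0d2, Cd84 and Lilrb4a, and 0.944 for Gpnmb, 0.924 for Cd9 and 0.885 for Spp1. With group means taken off it was 0.828 for Trem2 and 0.937 for Lgals3, the lowest and highest of those 7, and 0.465 for Gpnmb, 0.499 for Cd9 and 0.536 for Spp1. Gpnmb, whose libraries within a group moved least with those of the other members, was also the member with the highest ratio at 30 °C.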

How the data were processed

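Interscapular BAT of 12 mice was sequenced, 3 libraries per group. The authors mapped the single-end reads with STAR 2.7.5a on mm10, and HOMER 4.11.1 counted them over exons. The deposited table holds TPM of 25124 genes, 1 transcript each, with its length in bases. For each temperature the authors also deposited normalized log2 values, whose transform is not named, and a DESeq2 comparison that was not used. In those tables Trem2 and Mmp12 (and Spp1 at TN) have another transcript than in the TPM table.

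Values were taken as log2(TPM + 1), and genes with a mean of at least 1 TPM in the fitted libraries were tested with limma 3.58.1 in R 4.3.3, with an intensity trend in the empirical Bayes step and p-values adjusted by Benjamini-Hochberg. Genotypes were compared on 6 libraries and temperatures on 12. Genes were called at a fold above 1.25 or below 0.8 and an adjusted p under 0.05. Reads per gene were rebuilt as TPM × length over the value of 1 read, and limma-voom was run on genes with a mean of 10 reads. The filtered limma fits of the genotypes on log2(TPM + 1) were tested on simulated data with normal noise. The limma-voom, unfiltered and temperature fits were not tested in this way. Python 3.11.15 with matplotlib 3.10.9 drew the figures. The p-values measure the spread between these samples. Although the study describes WT littermates, no label says which samples shared a litter. Header totals and read counts set the depth, and intervals cover counting error only.

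The members and lists were chosen with earlier results of these data known. Named genes are the members, Txnip, Tyrobp, Apoe, Csf1r, Adgre1, Itgb2, Mmp1b, Lilrb4b, Mitf, up to 3 called genes of each other list by size of change, and the genes most like the members. Mrc1, Lpl and overlapping genes were also named after their values were seen. The result of 1 listed gene is not reported here. The alternatives were a pseudocount of 0.1, no filter, upper-quartile normalization, median centring, a replicate block, each library left out, all 12 libraries, the authors' log2 values and no fold threshold.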

Additional observations from a re-analysis of the deposited data

How the results depend on the processing

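At 23 °C the number of members called, 1, became 2 without the filter on low values, 0 with all 12 libraries in 1 fit, 5 by limma-voom on rebuilt reads (Mmp12 and Atp6v0d2 tested only through Txnip-/-), and 0 to 1 with each library left out (0 to 5 by limma-voom). Of all genes, 178 were called there, against 44 without the filter, 275 with all 12 libraries, 100 with the replicate block, 2 to 159 with each library left out, and 11 to 232 in place of 214 by limma-voom. Whether the replicate numbers pair the samples is not known. Same-numbered RT libraries had deviations with r of 0.3, −0.0125 and 0.216, which were not set against libraries of different numbers. With the block 1 member was called at 23 °C and 9 in each other comparison. At 30 °C the 9 members called became 7 without the filter, without Lgals3 and Cd84, and 3 to 9 with each library left out, and the 1116 genes became 621 without the filter and 456 to 1005 with each library left out. In the temperature comparisons the number of members called lay between 7 and 10 under every alternative run. Of all genes, 3767 of 12486 to 6845 of 15067 were called in WT, and 4303 of 12531 to 6849 of 15067 in Txnip-/-. Of the members only Cd9 and Lgals3 had a mean of at least 1 TPM in RT WT, so nothing is read from these counts. The difference of Cd9 at 23 °C changed sign with single libraries left out, from −0.0887 to 0.235 on the log2(TPM + 1) scale and from −0.128 to 0.263 by limma-voom. Among the members tested in these fits, Cd9 was the one for which the direction turned. On the log2(TPM + 1) scale the fits held 3 or 5 of the 10 members and never Spp1. The excess of the members over the macrophage identity genes, by median, was 0.0286 with Csf1r and 1.12 on log2(TPM) in place of 0.15 at 23 °C, and 1.04 on log2(TPM) in place of 0.59 at 30 °C. For TN over RT it was 0.0149 with Csf1r and 1.18 on log2(TPM) in place of 0.29 in WT, and 0.54 and 1.35 in place of 0.69 in Txnip-/-. The members' low levels at 23 °C, down to 2 reads for Atp6v0d2 and Spp1, limit what can be told there. On the authors' log2 values the difference was 0.47 for Lgals3 at 23 °C in place of 1.11, and at 30 °C 1.30 for Lgals3 in place of 2.003, 0.60 for Trem2 in place of 1.44 and 0.16 for Spp1 in place of 0.52, with another transcript for Trem2 and Spp1, and 9 members were called at 30 °C.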
